A study of Mus musculus with 16 samples.

Results

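The genes described here are 39 textbook markers of the sinusoidal endothelial cells and the stellate cells of the liver, taken by name from the 24970 genes of a mouse liver RNA-seq count table. Of the 39, 20 mark sinusoidal endothelium and 19 mark stellate cells and the matrix that they make. All 39 are in the table and all 39 passed the filter on low counts, which 12913 genes passed in all. The rule is a list of names and uses no measured value, but the names were chosen with earlier results of these data known. Counts of members set beside all genes tested are therefore a description and not a test. A gene was called where its edgeR quasi-likelihood p, adjusted over the 12913 genes by the Benjamini-Hochberg method, was under 0.05.

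Polyadenylated RNA was sequenced from whole liver of 16 mice, 4 in each of 4 groups. The first group held mice of a strain whose PXR, CAR and CYP3A4/3A7 were humanized, given TCPOBOP at 3 mg/kg in 2 administrations 24 h apart. The second held mice of the same humanized strain given the vehicle, 2% DMSO in corn oil. The other two held wild-type C57BL/6 Ntac mice given TCPOBOP or vehicle in the same way, and all livers were taken at 48 h. CAR, the constitutive androstane receptor, and PXR, the pregnane X receptor, are related nuclear receptors, and TCPOBOP is a synthetic compound that activates CAR of the mouse and has little activity on that of humans. The sources used here give no age, sex, litter or background strain for the humanized line, so the humanized genes and any other difference between the 2 strains cannot be told apart.

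Sinusoidal endothelial cells line the liver's capillaries, take up waste molecules through scavenger receptors, and send Wnt, R-spondin and BMP ligands to the hepatocytes beside them. Stellate cells lie in the space between this endothelium and the hepatocytes, where they store retinyl esters and, when activated, become the liver's main source of fibrillar collagen. CAR and PXR are nuclear receptors known mainly for their action in hepatocytes. In whole liver, fewer cells of a type and less RNA per cell cannot be told apart.

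Total counts over all accessions were 14019983 to 16755802 per library in humanized TCPOBOP, 12612610 to 16904182 in humanized vehicle, 30228724 to 37998473 in wild-type TCPOBOP and 11827994 to 19483951 in wild-type vehicle livers. The mouse gene for CAR, Nr1i3, averaged 3.45 and 2.20 CPM in humanized TCPOBOP and vehicle livers, against 52.3 and 100.3 CPM in wild-type TCPOBOP and vehicle livers. CPM is used here in its usual sense of a count scaled to library size, with the gene-level total and TMM factors. Humanized TCPOBOP replicates 1 and 2 stood apart from replicates 3 and 4. They were below both other libraries of their group for 18 of the 20 endothelial members (90.0%) and 13 of the 19 stellate and matrix members (68.4%), against 31.5% of all genes tested. In wild-type vehicle livers, replicates 1 and 2 were above both others for 11 of the 19 stellate and matrix members (57.9%), against 25.6% of all genes. In wild-type TCPOBOP livers, replicates 1 and 2 were above both others for 13 of the 20 endothelial members (65.0%), against 20% of all genes. Libraries also differed in how well long transcripts were recovered. With tested transcripts put in 4 equal bins by length, the longest bin minus the shortest, as a median log2 deviation from each gene's mean, was -0.89 and -0.46 in humanized TCPOBOP replicates 1 and 2, 0.33 and 0.40 in replicates 3 and 4, -0.39 to -0.22 in humanized vehicle, 0.09 to 0.28 in wild-type TCPOBOP and 0.02 to 0.36 in wild-type vehicle livers. The members are somewhat long, with a median transcript length of 3607 bases for the endothelial and 3738 bases for the stellate and matrix members, against 2898 bases for tested genes. Results are therefore also given with offsets for transcript length and GC content, and without replicates 1 and 2 of humanized TCPOBOP or of wild-type vehicle livers. These alternatives were chosen after the data were seen. Wild-type TCPOBOP replicates 1 and 2 were not left out together.

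**Figure D1:**
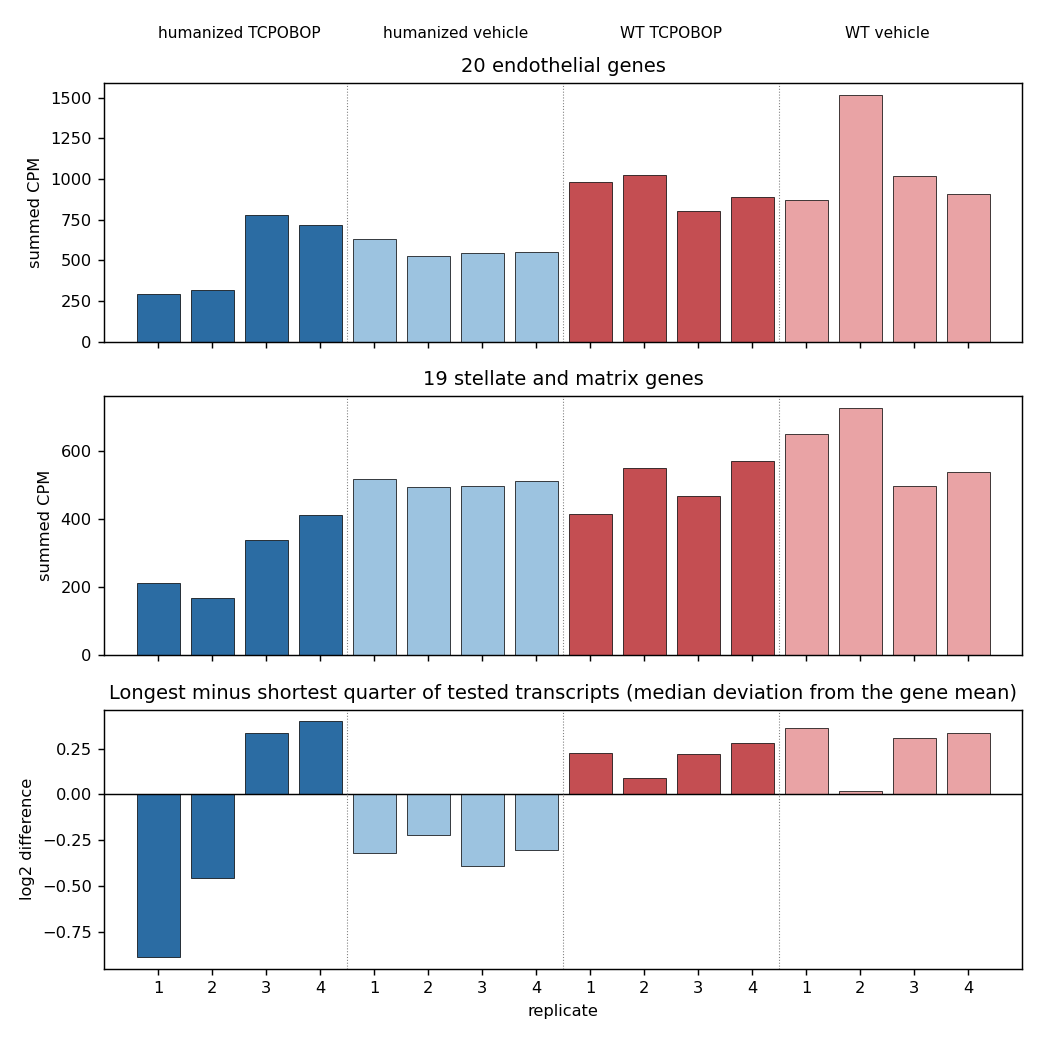
Summed TMM-scaled CPM of the 20 endothelial members (top) and the 19 stellate and matrix members (middle), and the length difference of each library in log2 units (bottom), 1 bar per library. Humanized TCPOBOP replicates 1 and 2 have the lowest endothelial sums, 290.4 and 317 CPM, and the lowest length differences, -0.89 and -0.46.

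The 20 endothelial members spanned a wide range of expression. Per kilobase of transcript and averaged over all 16 libraries, Clec4g, a C-type lectin of the sinusoid, led with 40.9 CPM per kb, followed by Eng, a co-receptor for TGF-beta family ligands, at 24.8 CPM per kb, and Ehd3, an ATPase of endocytic recycling, at 20.8 CPM per kb. The scavenger receptors Stab1 and Stab2 stood at 12.0 and 9.60 CPM per kb. At the low end were the angiocrine ligands Rspo3, at 1.57 CPM per kb, and Wnt2, at 1.13 CPM per kb. Among the 19 stellate and matrix members, the proteoglycan Dcn at 53.7 CPM per kb and the matrix protein Ecm1 at 53.0 CPM per kb were nearly equal. The collectin Colec11 followed at 31.7 CPM per kb. The transcription factor Lhx2 at 0.846 CPM per kb and Timp1, an inhibitor of matrix metalloproteinases, at 0.675 CPM per kb were lowest. The ranges over the 16 libraries overlapped for all 19 neighbouring pairs of the endothelial order and all 18 of the stellate and matrix order. Apart from Timp1, the members that varied most between libraries were Hgf, Col5a2 and Col1a1, with a highest library 61.0-fold, 53.4-fold and 52.3-fold over the lowest, against 2.76-fold for Lhx2 and 3.14-fold for Hand2. Timp1 was at 0 counts in humanized vehicle replicates 1 and 2. A count of 0 allows up to 3 counts, or 0.311 and 0.349 CPM in these libraries, for counting error only.

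**Figure D2:**
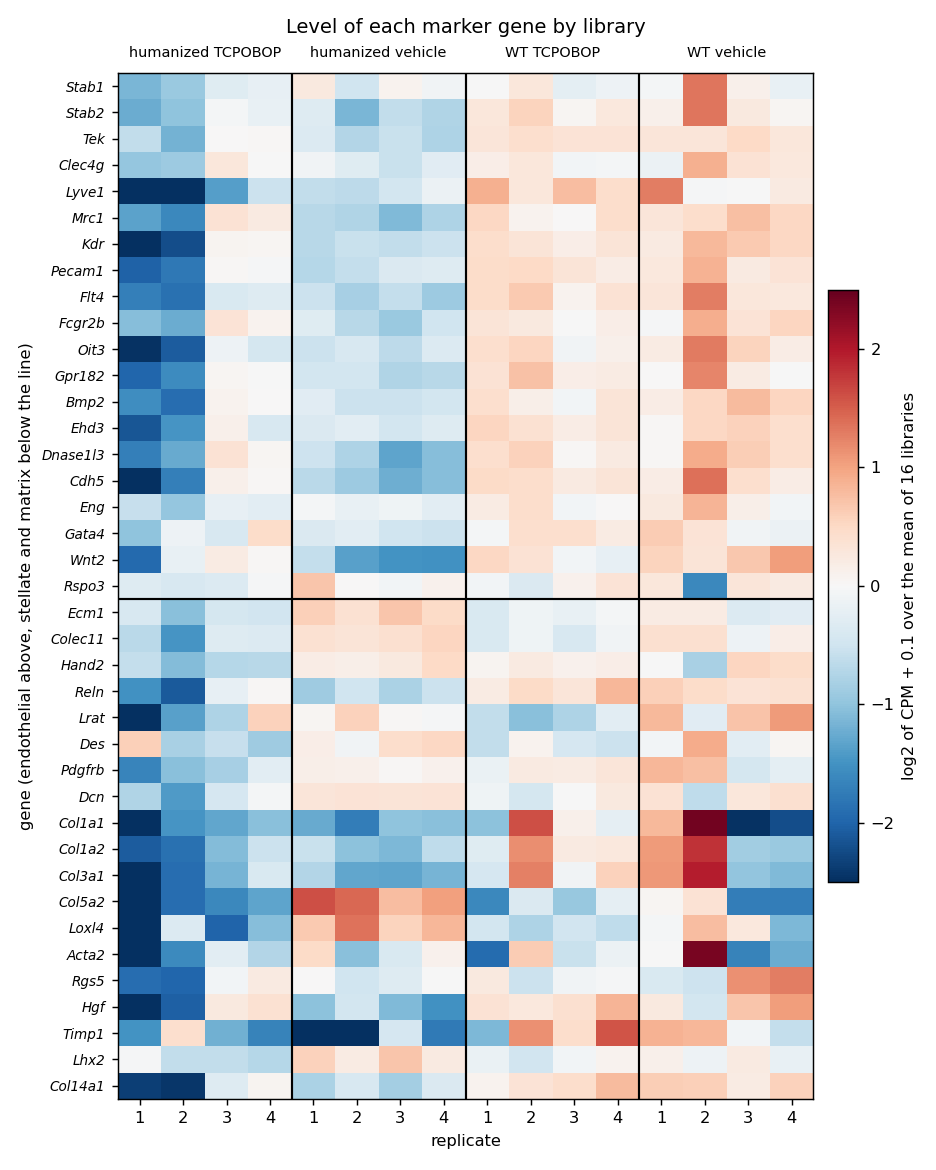
Level of each of the 39 members in each of the 16 libraries, as log2 of CPM + 0.1 over the gene's mean, endothelial members above the line and stellate and matrix members below it. Humanized TCPOBOP replicates 1 and 2 are below replicates 3 and 4 for 18 of the 20 endothelial members, humanized vehicle livers are low for most endothelial members, and Col5a2 is high in all 4 humanized vehicle livers.

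Many endothelial markers were lower in humanized than in wild-type liver under vehicle, and none was called higher. Of the 20 members, 9 passed the threshold and all 9 were lower, against 16.1% of all genes tested called in either direction and 8.95% called lower. The log2 difference was negative for 19 of 20, with a median of -1.01 against 0.00 over all genes tested. The exception was Rspo3. In 16 of 20 members all 4 humanized vehicle livers were below all 4 wild-type vehicle livers, where 26.4% of all genes tested had groups that did not overlap in either direction. The summed CPM of the 20 was 632, 528, 544 and 552 in humanized vehicle livers, against 870.4, 1518, 1019 and 909 in wild-type vehicle livers. No library of one group reached the range of the other.

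Among the scavenger and clearance receptors, Stab2, the hyaluronan receptor of the sinusoid (NM_138673, chr10:86841194-87008038, mm10), stood at 62.8, 35.6, 51.6 and 46.9 CPM in humanized vehicle livers, against 85.7, 199, 93.6 and 81.9 CPM in wild-type vehicle livers. The groups did not overlap, and wild-type vehicle replicate 2 was more than 2-fold above its group. The difference was -1.23 ± 0.30 on the log2 scale (edgeR adjusted p = 0.0163). Mrc1, the mannose receptor, averaged 28.1 ± 3.51 CPM in humanized and 71.1 ± 9.27 CPM in wild-type vehicle livers (SD, n = 4 each; log2 difference -1.34 ± 0.33, edgeR adjusted p = 0.0165). Fcgr2b, an inhibitory Fc receptor that clears immune complexes, averaged 17.5 ± 3.25 CPM in humanized and 36.6 ± 9.85 CPM in wild-type vehicle livers (-1.07, edgeR adjusted p = 0.0241). Neither gene's groups overlapped. Lyve1, another hyaluronan receptor, also had separate groups, at 9.02, 8.85, 10.1 and 12.5 CPM in humanized and 33.9, 13.7, 13.9 and 16.2 CPM in wild-type vehicle livers, and did not pass (-0.93 ± 0.39, edgeR adjusted p = 0.101).

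The promoters of Stab2, Mrc1 and Fcgr2b, from RefSeq on GRCm38.p6, show what regulatory sequence lies at 3 clearance receptors that were lower together. Each window runs 5′ to 3′ on the gene's strand, from 250 bases before to 50 bases after the promoter's start. That start lay 83, 22 and 56 bases from the annotated start of the counted transcript for Stab2, Mrc1 and Fcgr2b. Capitals mark matches to 6 motifs on either strand. The motif AGGTCA is a half-site read by many nuclear receptors of the family that CAR and PXR belong to. The motif AGATAA is the kind of site that GATA factors such as Gata4 bind. ETS factors, which act in all endothelium, bind sites with the letters AGGAAG at their core. Homeodomain factors such as Lhx2 bind sites with the letters TAATTA at their core. Basic helix-loop-helix factors such as Hand2 bind E-boxes, searched here as CAGATG. The last motif searched for was the TATA box, TATAAA. The windows are Stab2 at chr10:87007893-87008192, minus strand, Mrc1 at chr2:14229164-14229463, plus strand and Fcgr2b at chr1:170976022-170976321, minus strand.
Stab2: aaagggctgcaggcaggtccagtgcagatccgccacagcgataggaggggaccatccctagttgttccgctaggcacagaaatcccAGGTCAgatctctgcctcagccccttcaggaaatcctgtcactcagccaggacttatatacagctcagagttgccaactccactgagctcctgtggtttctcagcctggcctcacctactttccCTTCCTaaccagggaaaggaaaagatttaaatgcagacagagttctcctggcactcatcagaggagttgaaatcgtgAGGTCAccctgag
Mrc1: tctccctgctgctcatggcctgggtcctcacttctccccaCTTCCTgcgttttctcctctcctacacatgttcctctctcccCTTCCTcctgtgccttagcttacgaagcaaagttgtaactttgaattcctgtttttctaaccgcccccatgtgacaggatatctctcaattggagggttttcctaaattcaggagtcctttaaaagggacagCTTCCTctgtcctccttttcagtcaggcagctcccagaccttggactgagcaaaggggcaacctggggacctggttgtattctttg
Fcgr2b: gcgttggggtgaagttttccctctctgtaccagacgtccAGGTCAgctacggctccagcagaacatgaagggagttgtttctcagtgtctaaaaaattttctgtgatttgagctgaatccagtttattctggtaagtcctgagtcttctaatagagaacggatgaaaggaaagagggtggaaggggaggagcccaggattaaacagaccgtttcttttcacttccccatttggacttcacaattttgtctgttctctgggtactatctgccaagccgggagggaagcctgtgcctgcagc
AGGTCA was present in 3 of the 11 endothelial members whose promoter was in the table, which are Stab2, Fcgr2b and Ehd3, and in 0 of the 14 stellate and matrix members, against 16% of all 27025 promoters. AGGAAG was present in 6 of 11 endothelial and 4 of 14 stellate and matrix promoters, against 35.1% of all promoters. A match describes the letters alone.

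Receptors and junction proteins followed the same direction. Tek, the angiopoietin receptor Tie2 (NM_001290549, chr4:94739086-94874976), stood at 10.1, 7.68, 8.69 and 7.41 CPM in humanized vehicle livers, against 15.8, 15.7, 18.02 and 15.5 CPM in wild-type vehicle livers. The 4 wild-type values lay close together and well above the humanized ones, and the log2 difference was -0.94 ± 0.22 (edgeR adjusted p = 0.0129). Flt4, the receptor VEGFR3, averaged 25.6 ± 3.27 CPM in humanized and 64.1 ± 25.7 CPM in wild-type vehicle livers (-1.32, edgeR adjusted p = 0.0149). Cdh5, the cadherin of endothelial junctions, averaged 17.5 ± 2.88 CPM in humanized and 52.6 ± 24.1 CPM in wild-type vehicle livers (-1.59, edgeR adjusted p = 0.0222). Pecam1, an adhesion molecule of all endothelium, had separate groups, 11.8, 12.9, 15.1 and 15.7 CPM in humanized and 23.5, 35.8, 22.8 and 24.7 CPM in wild-type vehicle livers, and did not pass (-0.95 ± 0.34, edgeR adjusted p = 0.0664). Dnase1l3, a secreted nuclease, averaged 25.6 ± 6.15 CPM in humanized and 68.5 ± 17.4 CPM in wild-type vehicle livers (-1.42, edgeR adjusted p = 0.016).

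Of the 3 angiocrine ligands, Wnt2 and Bmp2 passed and Rspo3 did not. Wnt2, a Wnt ligand of central-vein and sinusoidal endothelium that sustains the pericentral programme of hepatocytes (NM_023653, chr6:17985474-18032772), stood at 1.66, 0.931, 0.841 and 0.835 CPM in humanized vehicle livers, against 3.82, 3.23, 4.13 and 5.37 CPM in wild-type vehicle livers. Every humanized value was below every wild-type value, and the log2 difference of -1.93 ± 0.38 (edgeR adjusted p = 0.00629) was the largest of the 20. Bmp2, a ligand that induces hepcidin in hepatocytes, averaged 18.5 ± 1.69 CPM in humanized and 36.6 ± 6.15 CPM in wild-type vehicle livers (-0.98, edgeR adjusted p = 0.0481). Rspo3, which strengthens Wnt signalling, stood at 7.88, 4.89, 4.63 and 5.22 CPM in humanized and 5.87, 1.52, 6.01 and 5.64 CPM in wild-type vehicle livers, with overlapping groups (0.26 ± 0.32, edgeR adjusted p = 0.587).

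These endothelial calls were read against the libraries that stood apart and against length. The length difference was -0.39 to -0.22 in humanized and 0.02 to 0.36 in wild-type vehicle livers, with no overlap. Recovery of long transcripts and strain therefore cannot be told apart in this comparison. The offsets take out only a trend fitted over all genes. With offsets for length and GC content, 10 of 20 were called lower, with a median of -0.84, where 19.9% of all genes were called in either direction; Clec4g and Eng were added and Bmp2 was lost. Without humanized TCPOBOP replicates 1 and 2, which enter only the shared filter, scaling and estimate of the spread, 18 were called lower, with 30.9% of all genes called. Without wild-type vehicle replicates 1 and 2 together, 4 were called lower, Tek, Mrc1, Dnase1l3 and Wnt2, with 10.5% of all genes called. The share of all genes called moved with the members' count when 1 library was left out. There were 4 calls without humanized vehicle replicate 3 (5.91% of all genes) and 5 without replicate 4 of that group (6.09%). There were 16 without humanized TCPOBOP replicate 1 (26.2%) and 15 without replicate 3 of that group (18.6%). Tek and Wnt2 passed under all 27 alternatives, with adjusted p-values of at most 0.0436 and 0.0283. Stab2 and Flt4 failed only without wild-type vehicle replicates 1 and 2 together, with adjusted p-values of 0.0644 and 0.0623, and Mrc1 only without humanized vehicle replicate 3, at 0.0534. Dnase1l3 failed without humanized vehicle replicate 3 or 4, at no more than 0.0534. Fcgr2b failed without humanized vehicle replicate 1, 3 or 4, and Cdh5 without these or wild-type vehicle replicate 2, and both failed without wild-type vehicle replicates 1 and 2, up to 0.0767 for Fcgr2b and 0.0831 for Cdh5. Bmp2 failed in 17 alternatives, among them each of the 12 that leave out 1 library of the humanized vehicle, wild-type vehicle or wild-type TCPOBOP groups, up to 0.112.

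Some other cell types moved with this difference, in which 16.1% of all genes tested were called, 7.11% higher and 8.95% lower. Of 22 further pan-endothelial genes 4 were lower and 0 higher, and the summed CPM of the list was 314 to 373 in humanized and 482 to 736 in wild-type vehicle livers. The 4 were the water channel Aqp1 (-1.73, edgeR adjusted p = 0.0113), Mmrn2 (-0.82), Adgrl4 (-0.93) and the transcription factor Sox7 (-1.27). Of 17 tested genes on a second list of sinusoidal genes 5 were lower, led by the Wnt ligand Wnt9b (-1.28, edgeR adjusted p = 0.0107) and the receptor Kit (-1.21, edgeR adjusted p = 0.0123). Of 27 tested angiocrine and vascular signalling genes 3 were higher and 2 lower. Vegfa and Vegfb, ligands of the VEGF receptors, were higher (0.96, edgeR adjusted p = 0.004, and 0.93, edgeR adjusted p = 0.015), and their co-receptors Nrp1 and Nrp2 were lower (-0.98, edgeR adjusted p = 0.0196, and -1.06, edgeR adjusted p = 0.027). Of 14 Kupffer cell genes, which are markers of the liver's resident macrophages, 9 were lower, with a median of -1.26, and their summed CPM was 336 to 605 in humanized and 651 to 1403 in wild-type vehicle livers. None of the 14 was at 0 in any library. Among those lower were Clec4f (-1.04, edgeR adjusted p = 0.0031) and Adgre1 (-2.35, edgeR adjusted p = 0.00848). Of 6 mesothelial genes 4 were lower (Msln, Upk3b, Upk1b and Lrrn4 were each at 0 in at least 1 library), with a summed CPM of 1.75 to 2.19 in humanized and 6.76 to 18.6 in wild-type vehicle livers, and of 5 erythroid genes 4 were lower, with 105 to 132 in humanized and 146 to 233 in wild-type vehicle livers. Of 9 tested hepatocyte genes 1 was lower, and they summed to 54698 to 68398 CPM in humanized and 63068 to 105120.0 CPM in wild-type vehicle livers. Of 9 tested genes of portal fibroblasts and smooth muscle 0 were called by edgeR and 3 had an unadjusted p under 0.05. Of 7 tested cholangiocyte genes 1 was higher, and the 1 tested lymphocyte gene was not called. The part of these cell types in the endothelial difference was not tested.

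Stellate and matrix members were mixed in the same comparison. Of 19, 2 were higher and 3 lower in humanized vehicle livers, against 7.11% higher and 8.95% lower over all genes, and the median was -0.48. Col5a2, a chain of type V collagen that seeds collagen fibrils (NM_007737, chr1:45374331-45503282), stood at 31.5, 27.9, 17.4 and 20.9 CPM in humanized vehicle livers, against 10.6, 13.1, 3.004 and 3.001 CPM in wild-type vehicle livers. The groups did not overlap, and the log2 difference was 1.73 ± 0.47 (edgeR adjusted p = 0.0222). Ecm1, a matrix protein that in mouse liver holds latent TGF-beta inactive (NM_001252653, chr3:95734147-95739876), stood at 152, 130.4, 162 and 140.0 CPM in humanized and 116, 116, 79.7 and 82.3 CPM in wild-type vehicle livers, again without overlap (0.57 ± 0.18, edgeR adjusted p = 0.0372). Reln, the secreted glycoprotein reelin, averaged 30.1 ± 4.01 CPM in humanized and 65.3 ± 5.42 CPM in wild-type vehicle livers (-1.12 ± 0.32, edgeR adjusted p = 0.0288) and did not overlap either.

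Col3a1 and Col1a2, chains of type III and type I collagen, were lower, but their wild-type values were split. Col3a1 stood at 20.9, 14.1, 13.9 and 15.4 CPM in humanized vehicle livers, against 73.7, 136, 17.5 and 16.3 CPM in wild-type vehicle livers. Wild-type replicates 1 and 2 were high, and replicates 3 and 4 were level with the humanized livers. The log2 difference was -1.92 ± 0.60 (edgeR adjusted p = 0.0397). Col1a2 stood at 11.2, 8.15, 7.57 and 10.6 CPM in humanized and 34.6, 58.1, 9.11 and 8.73 CPM in wild-type vehicle livers, with the same split (-1.55 ± 0.51, edgeR adjusted p = 0.0477). Col1a1 stood at 5.39, 3.84, 6.45 and 6.26 CPM in humanized and 22.9, 69.5, 2.25 and 2.73 CPM in wild-type vehicle livers and did not pass (-2.15 ± 0.82, edgeR adjusted p = 0.0776). Acta2, the smooth-muscle actin of activated stellate cells, whose sequence is close to that of other actin genes, stood at 6.22, 2.10, 3.36 and 4.80 CPM in humanized and 4.40, 23.5, 1.31 and 1.82 CPM in wild-type vehicle livers (-0.91, edgeR adjusted p = 0.386). Without wild-type vehicle replicates 1 and 2, Col3a1 differed by -0.10 (adjusted p = 0.906) and Col1a2 by 0.05 (adjusted p = 0.945). Col5a2 differed by 2.99 and Ecm1 by 0.82, both called. The replicates left out were the highest of their group for each of these genes, so their removal by itself moved the differences upward. The fit therefore cannot show that the higher levels of Col5a2 and Ecm1 hold. Lrat, the enzyme that makes retinyl esters, stood at 13.1, 18.9, 12.9 and 12.4 CPM in humanized and 22.3, 10.4, 20.7 and 26.7 CPM in wild-type vehicle livers (-0.48 ± 0.43, edgeR adjusted p = 0.439). Des, the intermediate filament desmin, averaged 6.02 ± 1.11 CPM in humanized and 5.86 ± 2.47 CPM in wild-type vehicle livers (0.03 ± 0.33, edgeR adjusted p = 0.953).

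The count of 5 stellate and matrix calls depended on single libraries. By edgeR it was 0 without humanized vehicle replicate 1 (4.78% of all genes called) and 3 without replicate 2 (14.7%). It was 1 without replicate 3 (5.91%) and 1 without replicate 4 (6.09%) of that group. It was 2 without wild-type vehicle replicate 1 (9.89%), and 3 without wild-type TCPOBOP replicate 3 (12.6%) or 4 (13.1%). With offsets for length and GC content, 1 was higher (Col5a2) and 3 were lower (Reln, Hgf and Timp1), where 19.9% of all genes were called. Col5a2 failed only without humanized vehicle replicate 1 or wild-type vehicle replicate 3 or 4, up to an adjusted p of 0.0714. Ecm1 failed in 9 of 27 alternatives, among them those without humanized vehicle replicate 1, 3 or 4, wild-type vehicle replicate 3 or 4 or wild-type TCPOBOP replicate 3, up to 0.116. Reln failed in 6, among them those without humanized vehicle replicate 1, 3 or 4 or wild-type vehicle replicate 1, up to 0.0879. Col1a2 and Col3a1 failed without any 1 of the 4 humanized vehicle livers or wild-type vehicle replicate 1 or 2. Of 22 quiescent stellate genes 0 were called by edgeR and 2 had an unadjusted p under 0.05. Of 29 matrix and activation genes 4 were called, all lower. They were fibronectin Fn1 (-1.47, edgeR adjusted p = 0.00546), the basement membrane collagen Col4a2 (-1.29, edgeR adjusted p = 0.0145), fibrillin Fbn1 (-1.60) and the protease inhibitor Timp2 (-0.73).

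**Figure D3:**
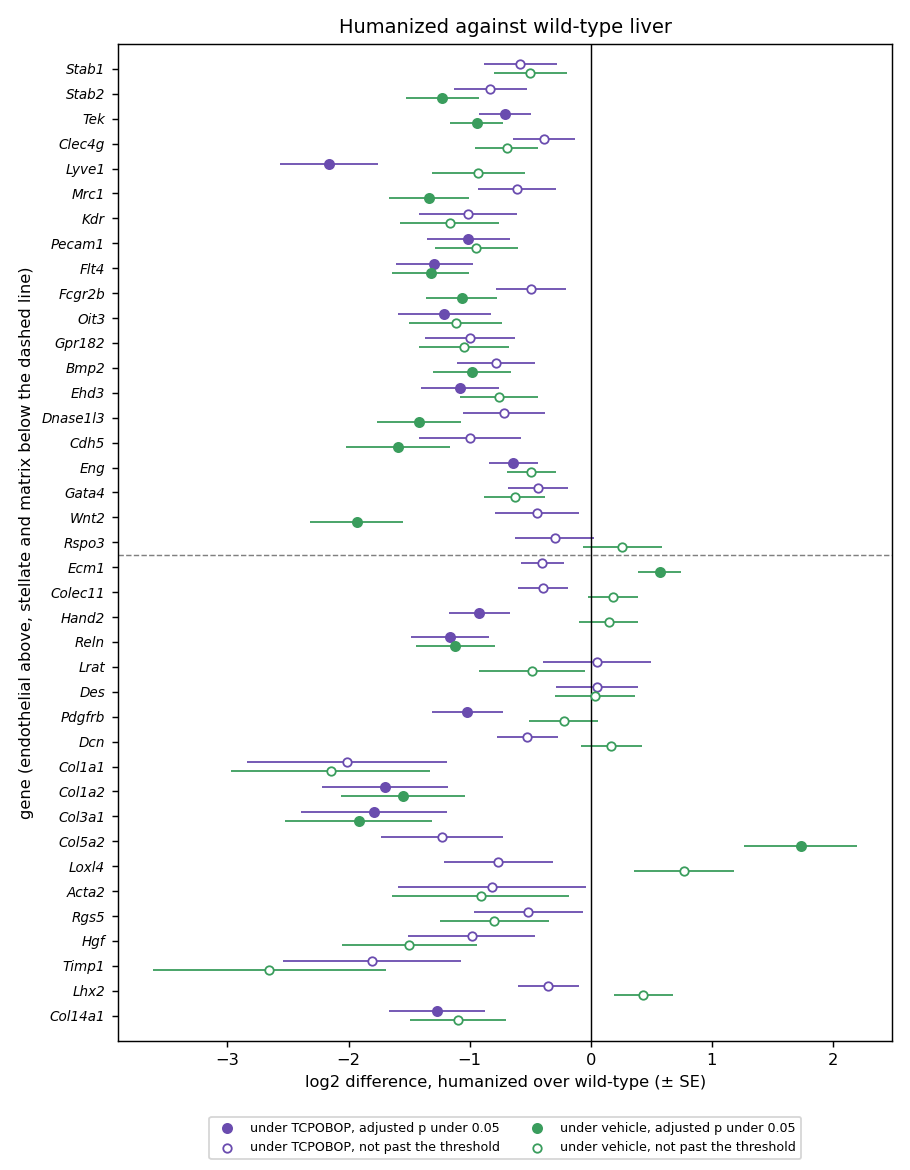
Log2 difference between humanized and wild-type livers for each of the 39 members (points, ± SE), under TCPOBOP (purple) and under vehicle (green), filled where the edgeR adjusted p is under 0.05. Under vehicle 9 endothelial members are filled, all left of 0, and Ecm1 and Col5a2 are the 2 filled to the right of 0.

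A number of endothelial markers were also lower in humanized liver under TCPOBOP. This comparison takes nothing from the vehicle libraries but the shared filter, scaling and estimate of the spread. Of the 20 members 7 were called, all lower, against 24.6% of all genes called in either direction, 11.8% called higher and 12.8% called lower. All 20 differences were negative, with a median of -0.75 against 0.01 over all genes tested, and 11 had groups that did not overlap, where 27.4% of all genes did. Tek and Flt4 were lower under both treatments. Lyve1 (NM_053247, chr7:110850607-110862953) stood at 2.07, 1.81, 5.33 and 9.60 CPM in humanized TCPOBOP livers, against 26.1, 16.9, 24.00 and 19.02 CPM in wild-type TCPOBOP livers. All 4 humanized values were below all wild-type values, and the log2 difference of -2.16 ± 0.41 (edgeR adjusted p = 0.000932) was the largest of the 20. Flt4 stood at 12.8, 11.4, 32.4 and 33.7 CPM in humanized and 58.0, 66.1, 44.4 and 53.9 CPM in wild-type TCPOBOP livers (-1.29 ± 0.32, edgeR adjusted p = 0.007).

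Humanized replicates 1 and 2 were below replicates 3 and 4 for all 7 called members. Pecam1 stood at 4.73, 5.58, 19.97 and 19.2 CPM in humanized TCPOBOP livers, against 26.8, 27.5, 24.4 and 22.2 CPM in wild-type TCPOBOP livers (-1.01 ± 0.34, edgeR adjusted p = 0.039). Humanized replicates 1 and 2 were far below replicates 3 and 4, which lay just under the wild-type range. The others called were Tek (-0.71, edgeR adjusted p = 0.0226), Oit3 (-1.21, edgeR adjusted p = 0.0301), Ehd3 (-1.08, edgeR adjusted p = 0.0213) and Eng (-0.64, edgeR adjusted p = 0.0305), none with overlapping groups. Stab2 stood at 33.4, 39.1, 75.9 and 69.7 CPM in humanized and 96.0, 116, 81.5 and 94.8 CPM in wild-type TCPOBOP livers, without overlap, and did not pass (-0.83 ± 0.30, edgeR adjusted p = 0.0513). Wnt2 stood at 0.591, 2.23, 2.97 and 2.61 CPM in humanized and 3.72, 3.31, 2.43 and 2.22 CPM in wild-type TCPOBOP livers, with overlap (-0.44 ± 0.35, edgeR adjusted p = 0.371). Rspo3 averaged 3.999 ± 0.503 CPM in humanized and 4.93 ± 1.01 CPM in wild-type TCPOBOP livers (-0.30, edgeR adjusted p = 0.524).

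Without humanized TCPOBOP replicates 1 and 2, Lyve1 was the 1 endothelial member still called under TCPOBOP, at -1.52 (adjusted p = 0.0127), with a median of -0.26 and 16.2% of all genes called. With offsets for length and GC content 7 were called lower, with 34.6% of all genes called and a median of -0.51 against 0.12 over all genes. Pecam1 then lost its call (adjusted p = 0.0581) and Stab2 gained one (adjusted p = 0.0491). The count was 3 without humanized TCPOBOP replicate 1 (20.1% of all genes called) and 2 without replicate 2 (18%). It was 15 without replicate 3 (27.6%) and 13 without replicate 4 (28.3%) of that group. It was 4 without wild-type TCPOBOP replicate 1 (20.4%), 2 (19.8%) or 4 (15.1%). Lyve1 passed under all 27 alternatives, and Flt4 failed only without both humanized replicates (adjusted p = 0.072). Without 1 humanized replicate, 1 or 2, the calls of Pecam1, Tek, Oit3 and Eng were lost, up to 0.251 for Eng, and that of Ehd3 was lost without replicate 2. Without wild-type TCPOBOP replicate 4, Pecam1, Tek and Oit3 were lost, and without replicate 1 or 2, Pecam1, Oit3 and Eng.

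Of the 19 stellate and matrix members 6 were lower in humanized TCPOBOP livers and 0 were higher, against the 24.6% of all genes called and 12.8% called lower in this comparison, with a median of -0.92. Pdgfrb, the PDGF receptor of stellate cells, stood at 3.10, 4.74, 5.53 and 8.30 CPM in humanized TCPOBOP livers, against 8.87, 11.6, 11.5 and 12.2 CPM in wild-type TCPOBOP livers (-1.02 ± 0.29, edgeR adjusted p = 0.0179). Hand2, a transcription factor of stellate cells (NM_010402, chr8:57320983-57324517), stood at 3.54, 2.51, 3.28 and 3.32 CPM in humanized and 5.69, 6.35, 5.89 and 6.07 CPM in wild-type TCPOBOP livers (-0.92 ± 0.25, edgeR adjusted p = 0.0135). Neither overlapped, and the Hand2 values were tight in both groups. Reln (-1.16, edgeR adjusted p = 0.0147), the fibril-associated collagen Col14a1 (-1.27, edgeR adjusted p = 0.0281), Col1a2 (-1.70, edgeR adjusted p = 0.0241) and Col3a1 (-1.79, edgeR adjusted p = 0.0379) were also lower, the last with 3 of 4 humanized livers below the wild-type range. Reln, Col1a2 and Col3a1 were thus called lower under both treatments. Without wild-type vehicle replicates 1 and 2, the vehicle differences of Col1a2 and Col3a1 were 0.05 and -0.10 and not called. Lrat (0.05 ± 0.44, edgeR adjusted p = 0.946) and Des (0.05 ± 0.34, edgeR adjusted p = 0.928) did not pass, nor did Col1a1 (-2.01 ± 0.83, edgeR adjusted p = 0.0829) or Acta2 (-0.82 ± 0.77, edgeR adjusted p = 0.464).

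The stellate and matrix count was 2 without humanized TCPOBOP replicate 1 (20.1% of all genes called), 3 without replicate 2 (18%) and 0 without both (16.2%). It was 2 without wild-type TCPOBOP replicate 4 (15.1%), and 7 with offsets for length and GC content (34.6%). Without humanized replicate 1 or 2 the calls of Pdgfrb, Col1a2, Col3a1 and Col14a1 were lost, and without wild-type TCPOBOP replicate 4 those of Pdgfrb, Reln, Col3a1 and Col14a1. Without wild-type TCPOBOP replicate 2 those of Col1a2 and Col3a1 were lost, and without replicate 3 that of Col14a1. Hand2 was lost only without both humanized replicates (adjusted p = 0.0765). Of the 29 matrix and activation genes 12 were lower and 0 higher under TCPOBOP, led by the basement membrane collagens Col4a2 (-2.32, edgeR adjusted p = 5.24e-05) and Col4a1 (-2.07, edgeR adjusted p = 0.000247), the matricellular protein Sparc (-1.20) and the laminin chain Lamb1 (-1.26). Of 22 quiescent stellate genes 7 were lower and 0 higher, with a median of -0.62. Of 14 Kupffer cell genes 0 were called by edgeR and 1 had an unadjusted p under 0.05, with a summed CPM of 313, 374, 817 and 674 in humanized and 877, 642, 758 and 778 in wild-type TCPOBOP livers. Of 9 tested genes of portal fibroblasts and smooth muscle 3 were lower and 0 higher, with a summed CPM of 19.9 to 41.7 in humanized and 42.9 to 90.9 in wild-type TCPOBOP livers. Of 6 mesothelial genes 1 was lower, with a summed CPM of 2.07 to 5.72 in humanized and 0.657 to 25.96 in wild-type TCPOBOP livers. Of 9 tested hepatocyte genes 3 were higher, with a median of 0.70, and of 10 proliferation genes all 10 were lower, with a median of -4.04. The part of these cell types in the members' differences was not tested.

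TCPOBOP against vehicle in humanized mice asks what the compound does where the mouse receptor is replaced. The vehicle livers are the same as in the comparison of strains under vehicle, here and in wild-type mice. In humanized livers 5 of the 19 stellate and matrix members fell and 0 rose, against 2.52% of all genes called, 1.19% that fell and 1.32% that rose. Their median was -0.78, against 0.02 over all genes tested, and 8 of 19 had groups that did not overlap, where 9.95% of all genes did, in either direction. Col5a2 stood at 0.591, 2.65, 3.28 and 4.03 CPM in humanized TCPOBOP livers, against 31.5, 27.9, 17.4 and 20.9 CPM in humanized vehicle livers. All 4 TCPOBOP livers were below all 4 vehicle livers by a wide gap, and the log2 change was -3.18 ± 0.52 (edgeR adjusted p = 0.00434). Loxl4, a lysyl oxidase that cross-links matrix (NM_053083, chr19:42592279-42612806), stood at 0.443, 4.74, 1.43 and 2.84 CPM in TCPOBOP and 9.64, 15.6, 8.97 and 10.9 CPM in vehicle livers, with no overlap (-2.25 ± 0.45, edgeR adjusted p = 0.0156).

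Ecm1, among the highest members per kilobase, stood at 75.6, 48.8, 73.8 and 72.1 CPM in humanized TCPOBOP livers, against 152, 130.4, 162 and 140.0 CPM in humanized vehicle livers. The 2 groups were far apart, with replicate 2 lowest, and the log2 change was -1.11 ± 0.18 (edgeR adjusted p = 0.00394). Colec11, a secreted collectin of the complement lectin pathway (NM_001313978, chr12:28594172-28623458), stood at 17.7, 10.0, 22.5 and 22.3 CPM in TCPOBOP and 36.6, 35.4, 37.0 and 40.9 CPM in vehicle livers (-1.04 ± 0.21, edgeR adjusted p = 0.0164). Hand2 stood at 3.54, 2.51, 3.28 and 3.32 CPM in TCPOBOP and 6.22, 6.05, 6.45 and 7.72 CPM in vehicle livers (-1.06 ± 0.26, edgeR adjusted p = 0.0399). For both genes every TCPOBOP value was below every vehicle value.

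The promoters of Ecm1, Colec11 and Hand2 are shown because these genes fell together by about the same factor, with the same motifs in capitals as above. The windows on GRCm38.p6 are Ecm1 at chr3:95739520-95739819, minus strand, Colec11 at chr12:28623281-28623580, minus strand and Hand2 at chr8:57320733-57321032, plus strand. Their promoter starts lay 2, 70 and 0 bases from the annotated start of the counted transcript, in that order.
Ecm1: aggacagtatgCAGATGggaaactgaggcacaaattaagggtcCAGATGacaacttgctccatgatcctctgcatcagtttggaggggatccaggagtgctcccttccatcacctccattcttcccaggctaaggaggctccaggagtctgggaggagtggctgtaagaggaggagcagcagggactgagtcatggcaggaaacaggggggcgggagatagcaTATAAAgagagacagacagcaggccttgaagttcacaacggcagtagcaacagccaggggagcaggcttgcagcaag
Colec11: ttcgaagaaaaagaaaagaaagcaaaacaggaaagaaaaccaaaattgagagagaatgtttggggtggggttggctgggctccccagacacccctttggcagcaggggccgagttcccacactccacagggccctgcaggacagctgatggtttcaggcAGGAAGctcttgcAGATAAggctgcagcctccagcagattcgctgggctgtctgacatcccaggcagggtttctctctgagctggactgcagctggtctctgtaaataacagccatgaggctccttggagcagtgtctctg
Hand2: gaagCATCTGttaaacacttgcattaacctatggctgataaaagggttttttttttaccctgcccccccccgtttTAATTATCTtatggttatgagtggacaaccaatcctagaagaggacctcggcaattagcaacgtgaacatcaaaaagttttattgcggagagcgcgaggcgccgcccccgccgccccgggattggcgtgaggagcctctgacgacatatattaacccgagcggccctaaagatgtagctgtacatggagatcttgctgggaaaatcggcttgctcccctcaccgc
AGATAA was present in Colec11, Hand2 and Rgs5, 3 of the 14 stellate and matrix promoters in the table, against 1 of 11 endothelial promoters and 11.4% of all promoters. TAATTA was present in Hand2 alone of the 14, where it overlaps TTATCT, the reverse complement of AGATAA, and in 5.31% of all promoters. CAGATG was present in 4 of 14 and 3 of 11, against 17.2% of all promoters, and TATAAA in 2 of 14 and 1 of 11, against 14.2%.

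Lrat stood at 1.77, 4.88, 7.38 and 18.96 CPM in humanized TCPOBOP and 13.1, 18.9, 12.9 and 12.4 CPM in humanized vehicle livers and did not pass (-0.78 ± 0.45, edgeR adjusted p = 0.389). Its replicate 4 was as high as the highest vehicle liver, and the other 3 were below the vehicle range. Des (-0.59 ± 0.34, edgeR adjusted p = 0.398), Col1a1 (-0.31 ± 0.86, edgeR adjusted p = 0.899) and Acta2 (-0.95 ± 0.80, edgeR adjusted p = 0.578) did not pass. Some genes of the related lists passed. Of 22 quiescent stellate genes 3 fell, Cygb, a globin of stellate cells (-1.29 ± 0.22, edgeR adjusted p = 0.00552), the parathyroid hormone receptor Pth1r (-0.88, edgeR adjusted p = 0.0349) and the extracellular superoxide dismutase Sod3 (-1.11, edgeR adjusted p = 0.035), and 1 rose, the nuclear receptor Pparg (0.71, edgeR adjusted p = 0.0449). Of 29 matrix and activation genes 2 fell, Col5a1, the partner chain of Col5a2 in type V collagen (-1.12, edgeR adjusted p = 0.0246), and the proteoglycan Bgn (-0.85, edgeR adjusted p = 0.0488).

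Col5a2, Loxl4 and Ecm1 passed under all 27 alternatives, with adjusted p-values of at most 0.0192, 0.0495 and 0.0172. Colec11 did not pass with offsets for length and GC content (-0.79, adjusted p = 0.11) or without humanized vehicle replicate 4, and in a fit of the 2 groups alone. Hand2 did not pass in 14 alternatives, among them those without any 1 of the 4 humanized vehicle livers or humanized TCPOBOP replicate 2, 3 or 4, up to 0.129. With the offsets 5 members fell, Ecm1, Pdgfrb, Dcn, Col5a2 and Loxl4, where 6.48% of all genes were called. The count was 3 without humanized vehicle replicate 4, where 0.567% of all genes were called, against 2.52% with all 16 libraries. Without humanized TCPOBOP replicates 1 and 2, where 21.2% of all genes were called, 6 fell, which were Ecm1, Colec11, Hand2, Col5a2, Loxl4 and Lhx2 (-1.10, adjusted p = 0.0169), and 2 rose, Reln (0.63, adjusted p = 0.0231) and the growth factor Hgf (1.36, adjusted p = 0.0199). Replicates 1 and 2 were below both others for 13 of the 19 members, so their removal by itself raised most TCPOBOP means.

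**Figure D4:**
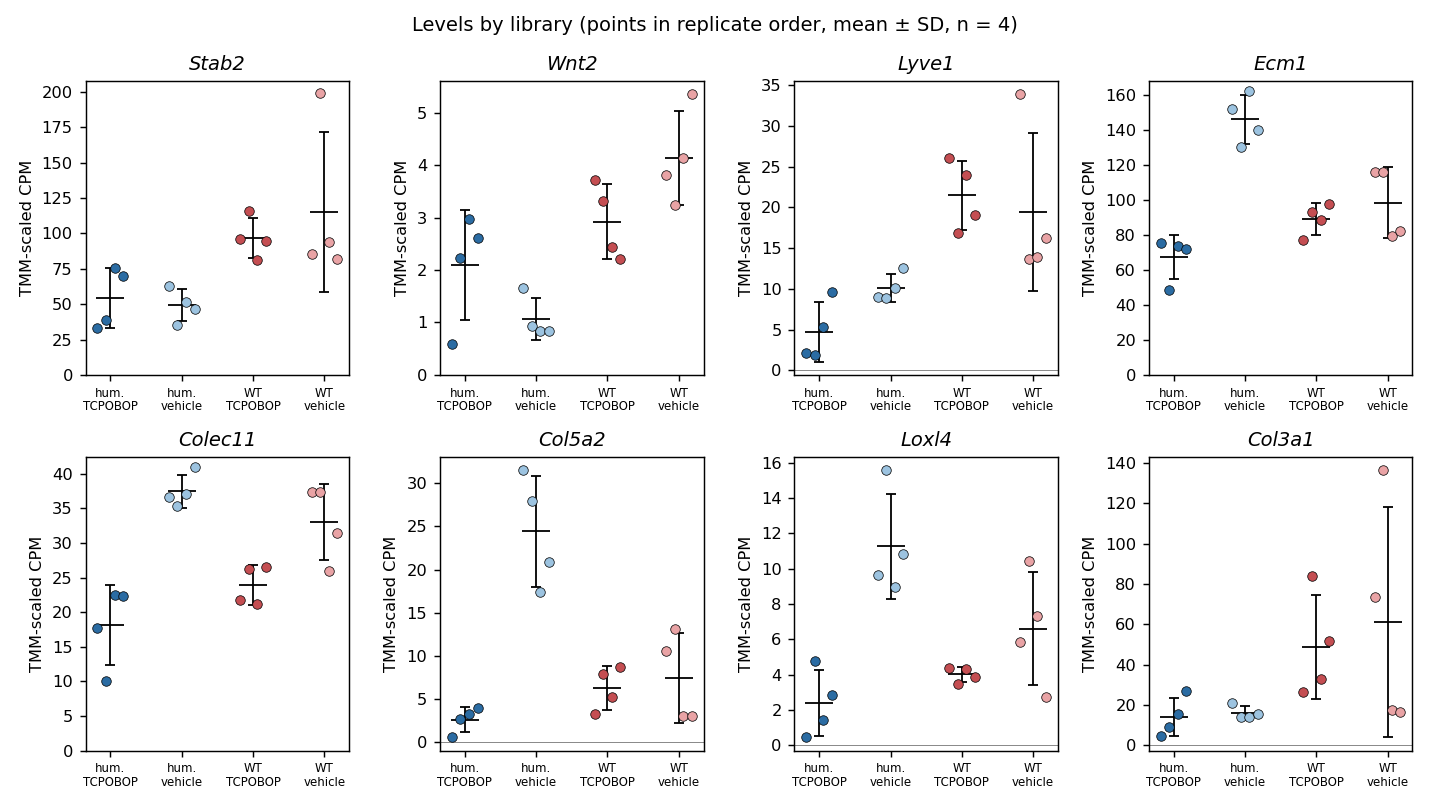
TMM-scaled CPM of 8 members in each of the 4 groups (points are libraries in replicate order, bars are mean ± SD, n = 4 each). Ecm1, Colec11, Col5a2 and Loxl4 are lower in all 4 humanized TCPOBOP livers than in any humanized vehicle liver, and Stab2 and Wnt2 are lower in all 4 humanized vehicle livers than in any wild-type vehicle liver.

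No endothelial member was called with TCPOBOP in humanized liver. Of the 20, 0 were called by edgeR, against 2.52% of all genes, and 2 had an unadjusted p under 0.05. DESeq2 called 0, against 5.92% of all genes. With so few genes called, 0 of 20 does not set these members apart from genes as a whole. Their edgeR median was -0.05. The count was 1, higher with TCPOBOP, without humanized TCPOBOP replicate 1 (7.36% of all genes called). It was 1, lower with TCPOBOP, without replicate 4 (1.22%). The 4 libraries were split. Stab2 stood at 33.4, 39.1, 75.9 and 69.7 CPM in TCPOBOP and 62.8, 35.6, 51.6 and 46.9 CPM in vehicle livers, so that replicate 1 was below the vehicle range, replicate 2 in its lower part and replicates 3 and 4 above it (0.15 ± 0.30, edgeR adjusted p = 0.853). Pecam1 stood at 4.73, 5.58, 19.97 and 19.2 CPM in TCPOBOP and 11.8, 12.9, 15.1 and 15.7 CPM in vehicle livers, with replicates 1 and 2 below the vehicle range and 3 and 4 above it (-0.15 ± 0.35, edgeR adjusted p = 0.876). Wnt2 stood at 0.591, 2.23, 2.97 and 2.61 CPM in TCPOBOP and 1.66, 0.931, 0.841 and 0.835 CPM in vehicle livers, with replicate 1 below and the other 3 above the vehicle range (0.98 ± 0.40, edgeR adjusted p = 0.202). Lyve1 stood at 2.07, 1.81, 5.33 and 9.60 CPM in TCPOBOP and 9.02, 8.85, 10.1 and 12.5 CPM in vehicle livers, with 3 of 4 below the vehicle range (-1.08 ± 0.41, edgeR adjusted p = 0.172). Rspo3 averaged 3.999 ± 0.503 CPM in TCPOBOP and 5.65 ± 1.503 CPM in vehicle livers (-0.50, edgeR adjusted p = 0.46).

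Without replicates 1 and 2 of that group, 8 of the 20 endothelial members were called, all higher with TCPOBOP, with a median of 0.54. They were Wnt2 (1.41, adjusted p = 0.0127), Mrc1 (1.16, adjusted p = 0.000856), Dnase1l3 (1.14), Cdh5 (1.07), Fcgr2b (0.84), Kdr, the VEGF receptor VEGFR2 (0.69), Tek (0.65) and Bmp2 (0.55). In that fit 21.2% of all genes were called, and only replicates 3 and 4 were left in the group. Replicates 1 and 2 were below both others for 18 of the 20 members, so their removal by itself raised the TCPOBOP means. The fit therefore cannot show a rise with TCPOBOP. The summed CPM of the Kupffer cell list was split in the same way, at 313, 374, 817 and 674 in humanized TCPOBOP livers, against 605, 399.6, 336 and 406 in humanized vehicle livers, and so was that of the pan-endothelial list, at 184, 178, 443 and 412 in TCPOBOP and 373, 314, 332 and 318 in vehicle livers. With offsets for length and GC content on all 16 libraries, edgeR called 0 endothelial members and 6.48% of all genes. The part of long-transcript recovery in this split was not tested otherwise. Outside the members, the transcription factor Sox17, on the pan-endothelial list, fell (-1.36, edgeR adjusted p = 0.0343), as did the Notch ligand Jag1 (-1.27, edgeR adjusted p = 0.0206).

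In wild-type mice, whose CAR responds to TCPOBOP, no member passed the threshold. Of 39 members 0 were called by edgeR, against 13.1% of all genes tested, 8.1% higher and 4.99% lower. By edgeR, 2 had an unadjusted p under 0.05 (Colec11 and Lrat). DESeq2 called 1, Lrat, with 16.5% of all genes called. The medians were -0.22 for both the endothelial and the stellate and matrix members, against -0.02 over all genes. Over the same livers Cyp2b10, the classical CAR target, averaged 3200.2 CPM with TCPOBOP and 48.2 CPM with vehicle. In humanized livers it averaged 105 CPM with TCPOBOP and 17.4 CPM with vehicle, with groups that did not overlap. The stellate member nearest to the threshold was Lrat, at 8.21, 6.08, 7.39 and 10.5 CPM in wild-type TCPOBOP livers, against 22.3, 10.4, 20.7 and 26.7 CPM in wild-type vehicle livers. Of the 4 TCPOBOP livers 3 were below all vehicle livers, and the log2 change was -1.31 ± 0.44 (edgeR adjusted p = 0.055). It passed with offsets for length and GC content (adjusted p = 0.00465), and without wild-type vehicle replicates 1 and 2 (adjusted p = 0.0406). The stellate and matrix count was also 1 without wild-type vehicle replicate 2 (16.8% of all genes called), and without humanized TCPOBOP replicate 1 (16.7%) or 4 (13.6%). The humanized libraries enter only the shared filter, scaling and estimate of the spread.

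All 20 endothelial members had overlapping groups in wild-type liver. Stab2 stood at 96.0, 116, 81.5 and 94.8 CPM in TCPOBOP and 85.7, 199, 93.6 and 81.9 CPM in vehicle livers (-0.25 ± 0.30, edgeR adjusted p = 0.683). Lyve1 stood at 26.1, 16.9, 24.00 and 19.02 CPM in TCPOBOP and 33.9, 13.7, 13.9 and 16.2 CPM in vehicle livers (0.16 ± 0.37, edgeR adjusted p = 0.858). Both overlapped, and in each a single vehicle library was well above the rest. Pecam1 (-0.08 ± 0.33, edgeR adjusted p = 0.92), Wnt2 (-0.51 ± 0.33, edgeR adjusted p = 0.378) and Rspo3 (0.06 ± 0.32, edgeR adjusted p = 0.943) did not pass. Among the stellate and matrix members Des (-0.60 ± 0.33, edgeR adjusted p = 0.269), Col1a1 (-0.45 ± 0.75, edgeR adjusted p = 0.788) and Acta2 (-1.05 ± 0.71, edgeR adjusted p = 0.401) did not pass either, with wide errors for the last 2. Without wild-type vehicle replicates 1 and 2, Col1a1 (2.82, adjusted p = 0.00937) and Col1a2 (1.33, adjusted p = 0.041) were called higher with TCPOBOP. In that fit 14.4% of all genes were called, and only 2 libraries were left in the vehicle group. The replicates left out were high for both collagens, so their removal by itself lowered the vehicle means. The fit therefore cannot show a rise of these collagens with TCPOBOP.

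A few vascular and stellate genes outside the members did pass in wild-type liver. Over all genes tested, 13.1% were called there, 8.1% higher and 4.99% lower. The numbers called on the vascular and stellate lists do not set them apart from genes as a whole. Of 27 angiocrine and vascular signalling genes 2 rose and 2 fell. Tgfbr2, a receptor for TGF-beta, rose by 2.05 ± 0.31 on the log2 scale (edgeR adjusted p = 0.000184), and Pdgfa, a ligand of the PDGF receptors, rose by 1.75 ± 0.32 (edgeR adjusted p = 0.000995). Bmp6, which with Bmp2 induces hepcidin, changed by -1.19 ± 0.30 (edgeR adjusted p = 0.0123), and Lgr5, the R-spondin receptor of pericentral hepatocytes, by -1.36 ± 0.29 (edgeR adjusted p = 0.00341). Of 22 quiescent stellate genes 1 rose and 1 fell, the one that fell being the chemokine Cxcl12 (-0.66, edgeR adjusted p = 0.00847). Kit was the 1 of 17 further sinusoidal genes that rose (0.94, edgeR adjusted p = 0.0201), and P4ha2, an enzyme of collagen hydroxylation, the 1 of 29 matrix genes (0.85, edgeR adjusted p = 0.0409). Which cells of the liver made these transcripts was not measured. All 10 genes of a proliferation list rose in the same livers, with a median of 3.06.

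**Figure D5:**
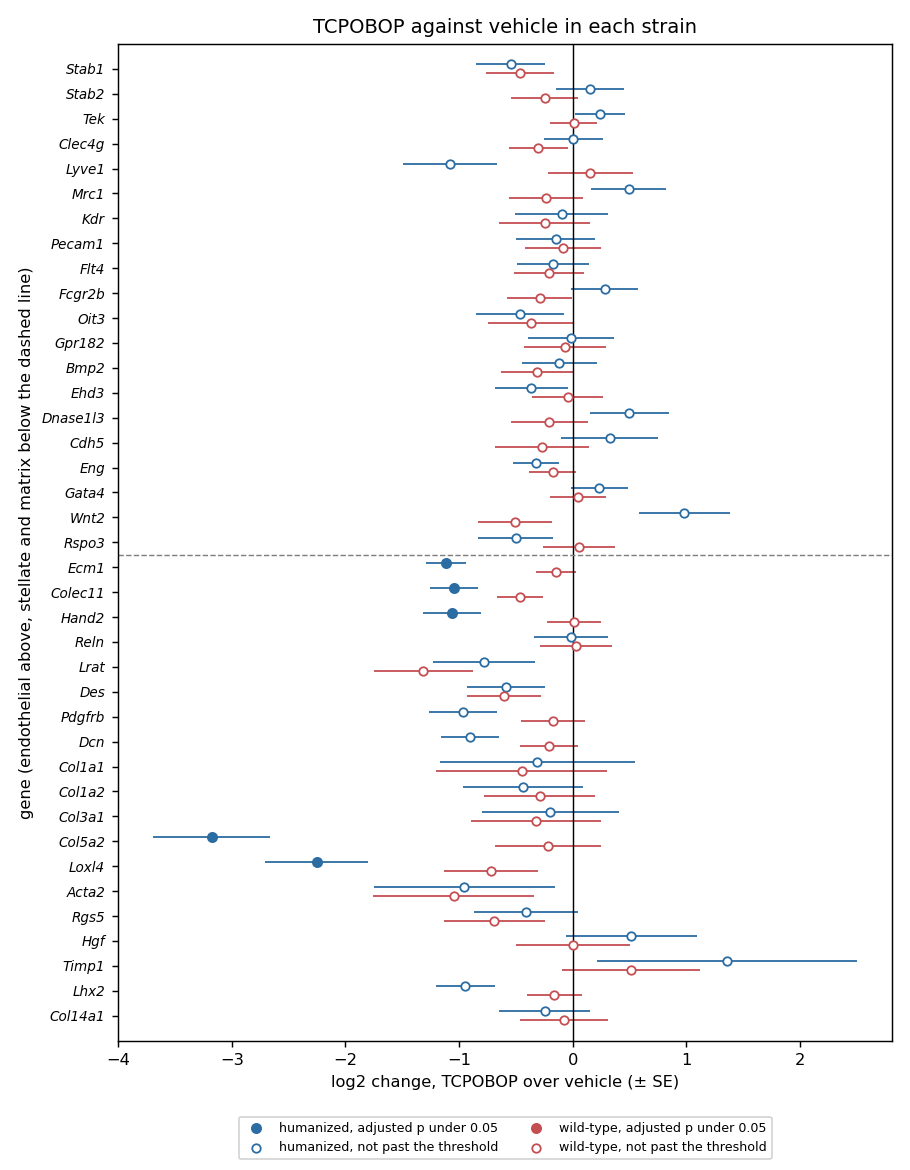
Log2 change with TCPOBOP over vehicle for each of the 39 members (points, ± SE), in humanized (blue) and wild-type (red) livers, filled where the edgeR adjusted p is under 0.05. The 5 filled points, Ecm1, Colec11, Hand2, Col5a2 and Loxl4, are all of humanized livers and left of 0, and no wild-type point is filled.

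The interaction tests whether TCPOBOP acted differently in the 2 strains. Of the 39 members 2 passed, both stellate and matrix genes with a negative difference, against 7.46% of all genes tested, 3.48% positive and 3.98% negative. Col5a2 changed by -3.18 ± 0.52 in humanized and by -0.22 ± 0.46 in wild-type livers, a difference between the effects of -2.96 ± 0.69 (edgeR adjusted p = 0.0126). Ecm1 changed by -1.11 ± 0.18 in humanized and by -0.14 ± 0.18 in wild-type livers, a difference of -0.97 ± 0.25 (edgeR adjusted p = 0.0229). Both genes were higher in humanized than in wild-type livers under vehicle, a comparison that shares its 8 vehicle livers with the interaction. Under TCPOBOP, Col5a2 averaged 2.64 ± 1.48 CPM in humanized and 6.31 ± 2.52 CPM in wild-type livers, and Ecm1 67.6 ± 12.6 CPM in humanized and 89.2 ± 8.93 CPM in wild-type livers. Col5a2 passed the interaction under all 26 alternatives, with an adjusted p of at most 0.0349. Ecm1 failed without humanized vehicle replicate 3, wild-type vehicle replicate 3 or 4 or wild-type TCPOBOP replicate 4, up to 0.0582, and the stellate count was then 1.

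For Colec11, Hand2 and Loxl4, which fell in humanized liver, a difference from the wild-type effect was not called (Colec11 -0.58 ± 0.29, edgeR adjusted p = 0.274, Hand2 -1.07 ± 0.35, edgeR adjusted p = 0.0739, and Loxl4 -1.53 ± 0.61, edgeR adjusted p = 0.144). Of the 20 endothelial members 0 were called by edgeR, 2 had an unadjusted p under 0.05, Lyve1 (-1.24 ± 0.55, edgeR adjusted p = 0.203) and Wnt2 (1.49 ± 0.52, edgeR adjusted p = 0.0933), and DESeq2 called 1, Wnt2 (1.56, adjusted p = 0.0342). In that DESeq2 fit 11.5% of all genes were called. Wnt2 also passed with offsets for length and GC content (1.68, adjusted p = 0.0399), where 14.4% were called. The endothelial count was 1, a positive difference, without humanized TCPOBOP replicate 1 (13.7% of all genes called). It was 1, a negative difference, without replicate 4 (6.27%). Without humanized TCPOBOP replicates 1 and 2 the interaction was called for 8 endothelial members, all positive, with 21.6% of all genes called. Those libraries were low for most endothelial members, so their removal by itself moved the interaction upward. The remaining named members, Stab2 (0.40), Pecam1 (-0.07), Rspo3 (-0.56), Lrat (0.54), Des (0.02), Col1a1 (0.14) and Acta2 (0.09), had adjusted p-values of 0.543 or more by edgeR. Outside the members, the vascular list held 4 called genes, of which Lgr5 (1.83, edgeR adjusted p = 0.01) and the HGF receptor Met (1.41, edgeR adjusted p = 0.0131) were positive and Pdgfa (-1.88, edgeR adjusted p = 0.0163) and Jag1 (-1.38, edgeR adjusted p = 0.0289) negative.

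The other members, which passed in no comparison, were spread as follows. Clec4g averaged 41.3 ± 17.7, 41.2 ± 5.31, 54.1 ± 6.63 and 66.6 ± 20.1 CPM in humanized TCPOBOP, humanized vehicle, wild-type TCPOBOP and wild-type vehicle livers, in that order (SD, n = 4 each). In the same order, Stab1 averaged 63.7, 93.0, 95.4 and 131 CPM, Kdr 31.2, 33.5, 63.3 and 75.1 CPM, the atypical chemokine receptor Gpr182 14.3, 14.5, 28.7 and 30.0 CPM, and Gata4, a transcription factor needed for sinusoidal identity in mouse, 15.4, 13.1, 20.8 and 20.2 CPM. All 5 had lower means in humanized than in wild-type liver under both treatments. Dcn averaged 63.2, 118, 90.9 and 105 CPM, Rgs5, a regulator of G-protein signalling in pericytes, 22.6, 30.2, 32.5 and 52.3 CPM, and Hgf, a growth factor for hepatocytes, 2.98, 2.16, 6.12 and 6.08 CPM. Timp1 averaged 0.327, 0.131, 1.12 and 0.811 CPM and Lhx2 1.71, 3.29, 2.17 and 2.43 CPM. Of the 39 members 13 share exon bases with another annotated gene, 10 of them with a gene on the opposite strand, among them Stab1 with Nt5dc2, Eng with Fpgs and Hand2 with Hand2os1. Since the use of strand in the counting is not stated in the sources used here, reads of these pairs cannot be told apart.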

How the data were processed

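Per the labels' protocols, polyadenylated RNA of 16 livers was made into libraries with a NEBNext kit. The deposited values are whole-number counts per RefSeq accession, which the authors left unscaled between libraries. STAR, DESeq2 and the mm10 build are named in the submitters' processing notes. No source used here gives the counting program, the annotation release or the use of strand. Of deposited counts of 20 or more, 74.9% were even, so a count may not stand for 1 fragment.

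Of 40458 accessions, 40219 were named from a RefSeq table of GRCm38.p6 and 125 from a GENCODE annotation. The other 114 stayed unnamed, and each was kept as a gene of its own. The accession with the highest mean count stood for each of 24970 genes, the unnamed ones included. Counting error grows at low levels, since 3 counts were 0.134 to 0.443 CPM, and wild-type TCPOBOP libraries were the deepest.

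edgeR 4.0.16 in R 4.3.3 was fitted to all 16 libraries with 4 group means (filterByExpr, TMM, quasi-likelihood F test, 12913 genes, Benjamini-Hochberg adjustment, 12 residual degrees of freedom). SE is the log2 change over the square root of F. DESeq2 1.42.0 was an alternative, beside other scaling, filters, row choice, a replicate block, fits of 2 groups and each library left out. Others were offsets for transcript length and GC content (natural splines) and the removal of replicates 1 and 2 of humanized TCPOBOP or of wild-type vehicle livers. The fit was also run on simulated counts that held no library splits or length trends. That run therefore cannot show how such features affect the calls. Figures were drawn with matplotlib 3.10.9 in Python 3.11.15.

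All 39 members are accounted for. Statistics are given for each member past the threshold in a comparison and, otherwise, for Stab2, Lyve1, Pecam1, Wnt2, Rspo3, Lrat, Des, Col1a1 and Acta2. Genes of other lists are named where past the threshold, at most 4 per list and comparison. The values of 1 gene outside the members are not reported here. The members and lists were chosen with earlier results of these data known. Nothing in the labels names separate cages, litters or days, so p-values measure the spread between these samples. Counts of replicate pairs differed by more than sampling noise in all 24 pairs.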

Additional observations from a re-analysis of the deposited data

Results flagged for a closer look

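A library far from the other 3 of its group was found in 18 of 164 groups of 4 examined. Chance flags about 1 in 20 groups. Wild-type vehicle replicate 2 held 9 of them.

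Wild-type vehicle replicate 2 was the highest of its group for Stab1 (243.6 CPM), Stab2 (199 CPM), Pecam1 (35.8 CPM), Flt4 (103 CPM), Gpr182 (51.0 CPM), Cdh5 (88.5 CPM) and Acta2 (23.5 CPM). It was the lowest of its group for Rspo3 (1.52 CPM) and Dcn (60.7 CPM). Wild-type vehicle replicate 1 was highest for Lyve1 (33.9 CPM), and replicate 3 was highest for Tek (18.02 CPM) and stood apart for Col14a1 (47.1 CPM).

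In humanized TCPOBOP livers, replicate 1 stood apart for Des (7.53 CPM) and Lhx2 (2.36 CPM), and replicate 2 for Ecm1 (48.8 CPM) and Timp1 (0.837 CPM). In humanized vehicle livers, replicate 1 was highest for Wnt2 (1.66 CPM) and replicate 2 for Lrat (18.9 CPM).

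The response to TCPOBOP differed between the strains for Ecm1 and Col5a2. The effect in humanized minus that in wild-type liver was -0.97 on the log2 scale for Ecm1 and -2.96 for Col5a2, both past the edgeR interaction test.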

How the results depend on the processing

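Of 34 called gene and comparison pairs, 7 passed under every alternative (Col5a2 with TCPOBOP in humanized liver and in the interaction, Ecm1, Loxl4, Lyve1, Tek and Wnt2 as named in the report), and 1 reversed: Col1a2 between strains under vehicle was 0.046 without wild-type vehicle replicates 1 and 2. Of the 34, 7 lost the call with offsets for length and GC content, and DESeq2 lost 0. Leaving out 1 library, called endothelial members were 4 to 16 between strains under vehicle, 2 to 15 between strains under TCPOBOP, 0 to 1 with TCPOBOP in humanized liver, 0 to 0 in wild-type liver and 0 to 1 in the interaction. Called stellate and matrix members were 0 to 7, 2 to 7, 3 to 7, 0 to 1 and 1 to 3 in the same order. Of all genes, 4.78% to 26.2%, 15.1% to 31.9%, 0.567% to 7.36%, 8.19% to 16.8% and 4.41% to 13.7% were called, again in that order. DESeq2 called 14 endothelial and 8 stellate and matrix members between strains under vehicle (22.3% of all genes called). It called 1 endothelial member (Wnt2) in the interaction (11.5%) and 1 stellate member (Lrat) in wild-type liver (16.5%). In wild-type liver, no filter on low counts (8.82%) and a fit of the 2 groups (13.6%) also gave 1. Fits of the 2 groups alone gave 17 endothelial members between strains under vehicle (21.3% of all genes called) and 2 under TCPOBOP (19.8%). Library totals without TMM gave 2 stellate members between strains under vehicle (14.8% of all genes called). They moved the median of all genes to -0.11 with TCPOBOP in humanized liver, -0.17 between strains under TCPOBOP and -0.22 in the interaction. The cause of these shifts was not tested.

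The following alternatives were added after seeing the data. Offsets for length and GC content gave 1 stellate member with TCPOBOP in wild-type liver (20% of all genes called) and 1 endothelial member in the interaction (14.4%). Without humanized TCPOBOP replicates 1 and 2, endothelial and stellate calls were 8 and 8 with TCPOBOP in humanized liver, 18 and 8 between strains under vehicle, 1 and 0 between strains under TCPOBOP, and 8 and 4 in the interaction, with 2 stellate members in wild-type liver. Of all genes, 21.2%, 30.9%, 16.2%, 21.6% and 19.3% were called in the same order. Without wild-type vehicle replicates 1 and 2, there were 4 and 3 between strains under vehicle (10.5% of all genes called). There were then 3 stellate members with TCPOBOP in wild-type liver (14.4%) and 5 in the interaction (12.4%). The cause was not tested.

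Same-numbered libraries did not pair: the correlation of their deviations ran from -0.24 to 0.58, 6 of 24 pairs were over 0.1, and 4 of 16 libraries correlated best with their own number. Between wild-type vehicle and TCPOBOP livers alone the 4 same-numbered pairs gave 0.0998, 0.581, 0.218 and 0.176, of which 3 were over 0.1. With the replicate block, endothelial and stellate calls were 0 and 1 with TCPOBOP in wild-type liver, 0 and 6 in humanized liver, 8 and 2 between strains under vehicle, 8 and 6 under TCPOBOP, and 0 and 2 in the interaction. Of all genes, 13.1%, 1.62%, 15.7%, 24.2% and 6.7% were called in the same order. Lrat was the 1 stellate member gained in wild-type liver (adjusted p = 0.0454).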
